A study of Mus musculus with 6 samples.

Results

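The 10 genes described here are products and receptors of mast cells in whole mouse dorsal skin: Cpa3, Cma1, Mcpt4, Tpsb2, Tpsab1, Kit, Ms4a2, Mrgprb2, Hdc and Fcer1a. They were taken by symbol from a deposited count table of 55487 genes, and all 10 passed the low-count filter that left 17988 genes for testing. Polyadenylated RNA came from skin treated with DPCP (diphencyprone, a hapten that elicits contact allergy) and sampled at day 2, and every library carries that treatment. The labels give 3 samples as DPCP+Codrosome, here called clodrosome (liposomes loaded with clodronate, which kill phagocytes that take them up). The other 3 are DPCP+Encapsome, the matching liposomes without clodronate. Strain, age, sex, dose and route are not given in the labels used here, nor is whether each library is 1 animal, so the tests below see only how much these libraries vary, which may be technical.

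Mast cells are resident immune cells of the dermis that store histamine, heparin and proteases in granules and release them when stimulated. The high-affinity IgE receptor, with an alpha chain (Fcer1a), a beta chain (Ms4a2) and a gamma chain shared with other Fc receptors (Fcer1g), triggers release when antigen crosslinks bound IgE, and Mrgprb2 triggers it without IgE in response to basic peptides and drugs. Growth and survival of mast cells depend on the receptor tyrosine kinase Kit and its ligand, stem cell factor. Connective tissue mast cells of rodent skin store carboxypeptidase A3 (Cpa3), the chymases Cma1 and Mcpt4 and tryptases, and they make histamine from histidine with the enzyme encoded by Hdc. Kit is also expressed by melanocytes, Hdc by other myeloid cells, and the Fc epsilon receptor by basophils.

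Library totals ran from 26649396 to 116965654 counts, and clodrosome library A was 3.29 times as deep as the next deepest. Letters A, B and C name table columns within a group and pair nothing between groups. The share of counts in rRNA genes was 0.355%, 0.796% and 0.334% in clodrosome libraries A, B and C, against 0.481%, 0.845% and 0.788% in encapsome libraries A, B and C. The basal keratin Krt14 was abundant, at 15700 CPM (counts in proportion to library size) in clodrosome skin and 12400 CPM in encapsome skin. All 10 macrophage genes of the marker list were lower with clodrosome (median log2 fold change -1.89), and Adgre1, the F4/80 antigen, averaged 90.7 CPM in clodrosome skin and 242 CPM in encapsome skin.

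Of the 10 mast cell genes 6 fell, 1 rose and 3 did not pass the test at an edgeR adjusted p under 0.05. Over all tested genes 22.4% passed, 13.0% lower and 9.41% higher in clodrosome skin. The 6 that fell, Cpa3, Cma1, Mcpt4, Tpsb2, Ms4a2 and Fcer1a, lay between -1.0 and -0.67 on the log2 scale, and the 1 that rose, Hdc, stood at 0.96. Kit, Tpsab1 and Mrgprb2 did not pass. The median log2 fold change was -0.89 over the 10 genes and 0.01 over all tested genes. Clodrosome libraries lay wholly below encapsome libraries for 7 of the 10 genes and wholly above for Hdc, while 40.2% of all tested genes were separated in either direction, 20.7% lower and 19.5% higher. In RNA of whole skin, fewer mast cells and less RNA per mast cell cannot be told apart. Structural genes of skin moved in the same libraries: of 6 listed, 4 fell and 1 rose. Col1a1, a collagen chain made by fibroblasts of the dermis, where mast cells lie, averaged 219 ± 46.5 CPM in clodrosome skin and 816 ± 146 CPM in encapsome skin (SD, n = 3 each), a log2 ratio of -1.90 (edgeR adjusted p = 1.63e-04). Col1a2, Krt1 and Krt10 fell by 1.61, 1.10 and 1.36 on the log2 scale, and Krt5, a basal keratin, rose by 0.66. The part of the share of dermis in the levels of the mast cell genes was not tested.

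**Figure D1:**
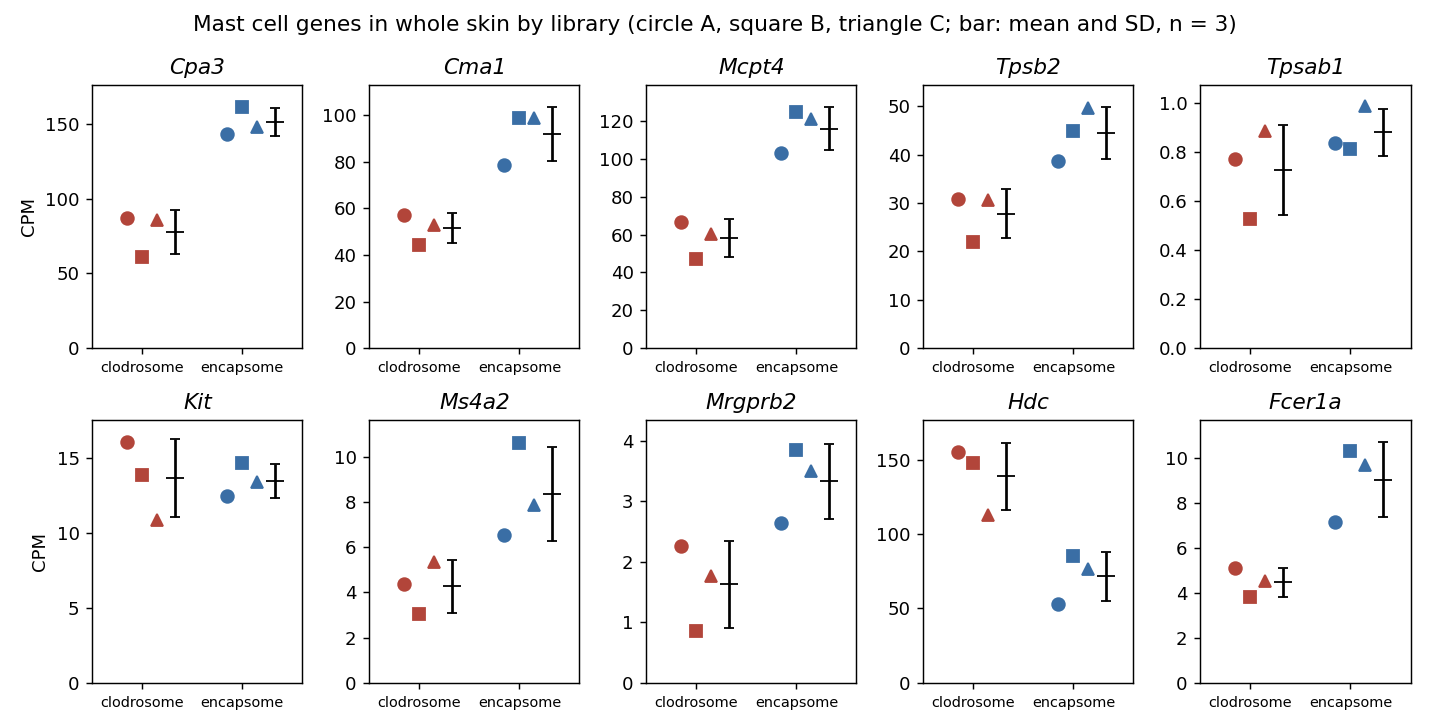
CPM (reads per gene relative to the TMM-adjusted library size; linear axis from 0) of the 10 mast cell genes in each clodrosome and encapsome library, with the mean and SD of 3 libraries beside the points. Clodrosome points of Cpa3, Cma1, Mcpt4, Tpsb2, Ms4a2, Mrgprb2 and Fcer1a lie below all encapsome points, those of Hdc lie above, and those of Kit and Tpsab1 overlap.

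Cpa3, the exopeptidase of mast cell granules (chromosome 3, 20215620 to 20242181, GRCm38), is a common marker transcript of this lineage. It had 87.2, 60.7 and 85.5 CPM in clodrosome libraries A, B and C, against 143, 161 and 148 CPM in encapsome libraries A, B and C. The lowest encapsome value was well above the highest clodrosome value. Means were 77.8 ± 14.8 CPM in clodrosome skin and 151 ± 9.46 CPM in encapsome skin (SD, n = 3 each), a log2 ratio (clodrosome over encapsome) of -0.95 (SE 0.130, edgeR adjusted p = 0.00108), or 1.93-fold lower with clodrosome.

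Both chymases fell as well. Mcpt4, a chymotrypsin-like protease regarded as the functional counterpart of human chymase (chromosome 14, 56059629 to 56062313), had 66.9, 47.3 and 60.2 CPM in clodrosome libraries A, B and C, against 103, 125 and 121 CPM in encapsome libraries A, B and C. Its log2 ratio was -1.0 (SE 0.127, edgeR adjusted p = 7.55e-04). Cma1, the mouse alpha-chymase with elastase-like activity (chromosome 14, 55941451 to 55944675), had 57.3, 44.5 and 52.7 CPM with clodrosome, against 78.7, 98.8 and 98.7 CPM with encapsome. Neither chymase overlapped between the groups. Cma1 changed by -0.84 in log2 ratio (SE 0.118, edgeR adjusted p = 0.00126). Reads in stretches that the chymases share with other transcripts would have been left out or misassigned, but such stretches were short: 5.38% of 50-base windows of Cma1 and 5.48% of those of Mcpt4 also occurred in transcripts of other genes.

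Of the tryptases, trypsin-like proteases held in the granule with heparin, Tpsb2 was by far the more abundant. Tpsb2 (chromosome 17, 25366305 to 25369098) had 30.8, 22 and 30.6 CPM in clodrosome libraries A, B and C, against 38.8, 45.0 and 49.7 CPM in encapsome libraries A, B and C. Every clodrosome value was again below every encapsome value, by a narrower gap than for Cpa3. The log2 ratio of Tpsb2 was -0.67 (SE 0.140, edgeR adjusted p = 0.00852). Tpsab1, its neighbour on chromosome 17 (25343245 to 25345562), was close to the limit of the depth, with 92, 16 and 32 counts in clodrosome libraries A, B and C and 26 counts in each encapsome library. That came to 0.727 ± 0.183 CPM in clodrosome skin and 0.881 ± 0.0950 CPM in encapsome skin (SD, n = 3 each), with overlapping groups. Its difference of -0.26 on the log2 scale (95% interval from -0.93 to 0.42; edgeR adjusted p = 0.592) does not show that Tpsab1 was equal, since a fall as large as that of Tpsb2 lay inside the interval. None of the 50-base windows of the tryptases occurred in transcripts of other genes.

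The IgE-binding alpha chain, Fcer1a (chromosome 1, 173221284 to 173227214), had 5.10, 3.82 and 4.51 CPM in clodrosome libraries A, B and C, against 7.17, 10.3 and 9.67 CPM in encapsome libraries A, B and C. The groups did not overlap, and the log2 ratio was -1.0 (SE 0.176, edgeR adjusted p = 0.00384). Ms4a2, the beta chain that amplifies the receptor's signal (chromosome 19, 11615523 to 11623719), had 4.39, 3.06 and 5.36 CPM with clodrosome and 6.55, 10.6 and 7.88 CPM with encapsome. It changed by -0.96 in log2 ratio (SE 0.233, edgeR adjusted p = 0.0174). The groups of Ms4a2 were separate but wide, and without encapsome library B its log2 fold change was -0.75 (edgeR adjusted p = 0.0744), so the call rests on that library.

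Mrgprb2, the receptor for basic secretagogues (chromosome 7, 48550965 to 48558086), had 2.27, 0.855 and 1.77 CPM in clodrosome libraries A, B and C, against 2.65, 3.85 and 3.50 CPM in encapsome libraries A, B and C. Its values were separate, with a log2 fold change of -0.97 as large as that of Cpa3, but its standard error was 0.317 and its edgeR adjusted p 0.0547. Counts were few, at 26 in clodrosome library B, and the clodrosome libraries had a coefficient of variation of 43.9%. The gene passed with DESeq2 (adjusted p = 0.0146), with no low-count filter (edgeR adjusted p = 0.00101) and without clodrosome library A (edgeR adjusted p = 0.0274), over a range of adjusted p up to 0.171. The fit with no low-count filter gave far smaller values for other genes too. For Cpa3 the edgeR adjusted p went from 0.00108 to 2.78e-21, with a log2 fold change of -0.94. The smaller value there is therefore not particular to Mrgprb2.

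Kit (chromosome 5, 75574916 to 75656722) did not move with the granule genes. It had 16.1, 13.9 and 10.9 CPM in clodrosome libraries A, B and C, against 12.5, 14.7 and 13.4 CPM in encapsome libraries A, B and C. The highest and the lowest of the 6 values were both clodrosome libraries. The log2 fold change was 0.02, with a 95% interval from -0.31 to 0.36 (edgeR adjusted p = 0.936), which leaves out a fall of the size seen for Cpa3. Without clodrosome library A and without encapsome library A the sign turned, to -0.12 and -0.04. Melanocytes, which also carry Kit, gave 7 tested markers, of which 1 rose and 0 fell by edgeR (2 and 0 at an unadjusted p under 0.05 and by DESeq2), with a median log2 fold change of 0.29. Among all tested genes 9.41% rose and 13.0% fell by edgeR. The summed level of the melanocyte markers was 35.6 to 43.1 CPM in clodrosome skin and 24.7 to 34.0 CPM in encapsome skin, with none at 0. Tyrp1, a pigment enzyme, rose by 0.68 (edgeR adjusted p = 0.0164). That count of 1 became 0 when clodrosome library C or either of encapsome libraries A and C was left out. Tyrp1 held 11.5 to 14.1 CPM of the sum in clodrosome skin and 6.17 to 9.45 CPM in encapsome skin. Of the other markers Dct, Tyr, Pmel and Sox10 overlapped between the groups, Mlana was higher with clodrosome and Slc45a2 lower. The part of melanocytes in the level of Kit was not tested.

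Hdc, histidine decarboxylase (chromosome 2, 126593667 to 126619299), rose. It had 155, 148 and 113 CPM in clodrosome libraries A, B and C, against 53.0, 85.2 and 76.5 CPM in encapsome libraries A, B and C. The lowest clodrosome library stood above the highest encapsome library. Means were 139 ± 22.5 CPM in clodrosome skin and 71.6 ± 16.6 CPM in encapsome skin (SD, n = 3 each). The log2 ratio of Hdc was 0.96 (SE 0.174, edgeR adjusted p = 0.00450), that is 1.94-fold higher with clodrosome, opposite in sign to the values of the 5 proteases Cpa3, Cma1, Mcpt4, Tpsb2 and Tpsab1.

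**Figure D2:**
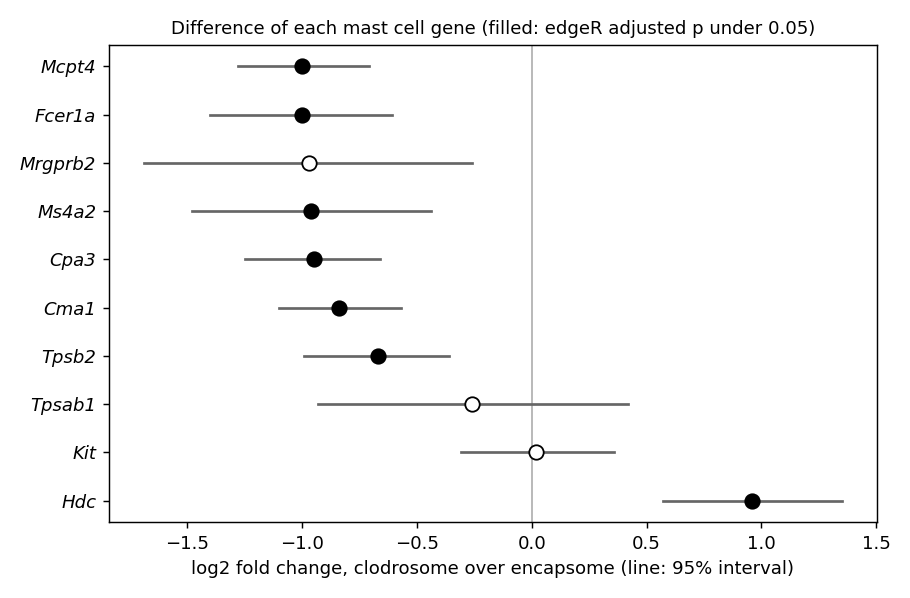
Log2 fold change of each mast cell gene, clodrosome over encapsome (horizontal axis), with its 95% interval as a line and edgeR adjusted p under 0.05 as a filled point. The 6 genes that fell run from Fcer1a at -1.0 to Tpsb2 at -0.67, Hdc stands alone at 0.96, and the open points are Mrgprb2, Tpsab1 and Kit.

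Promoter windows of 250 bases before the transcription start were available for 8 of the 10 genes in RefSeq on GRCm38.p6 (9 windows, Kit having 2). They were searched on both strands for AGATAA, a form of the site bound by GATA factors, and for CATGTG, a form of the E-box bound by MITF, both families known for their role in mast cells. AGATAA was found for 3 of the 8 genes, Cpa3, Ms4a2 and Fcer1a, and in 9.99% of 32851 promoter windows of that length. CATGTG was found in Fcer1a, and in 12.3% of the windows. The windows with a match are shown with that of Hdc, the gene that rose, which held neither of these exact forms. All 4 genes lie on the minus strand, each sequence reads 5′ to 3′ towards the start, and capitals mark the matches, which do not overlap each other. The start used for Hdc lies 621 bases inside the outer end of the deposited gene.
Cpa3, chr3:20242182-20242431: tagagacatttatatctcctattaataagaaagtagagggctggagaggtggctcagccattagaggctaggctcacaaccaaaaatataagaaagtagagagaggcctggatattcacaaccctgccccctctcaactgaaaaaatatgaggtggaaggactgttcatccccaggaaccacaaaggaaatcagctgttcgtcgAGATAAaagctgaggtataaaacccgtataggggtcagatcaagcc
Ms4a2, chr19:11623720-11623969: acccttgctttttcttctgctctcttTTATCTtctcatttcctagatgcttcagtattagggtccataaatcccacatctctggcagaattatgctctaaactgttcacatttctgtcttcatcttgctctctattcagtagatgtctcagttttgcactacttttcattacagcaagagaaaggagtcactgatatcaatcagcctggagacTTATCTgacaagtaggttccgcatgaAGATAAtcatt
Fcer1a, chr1:173227230-173227479: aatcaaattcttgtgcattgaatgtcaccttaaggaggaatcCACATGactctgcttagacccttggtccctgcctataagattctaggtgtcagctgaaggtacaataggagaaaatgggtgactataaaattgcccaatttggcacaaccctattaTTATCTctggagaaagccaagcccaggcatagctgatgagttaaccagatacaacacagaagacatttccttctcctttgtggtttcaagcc
Hdc, chr2:126618679-126618928: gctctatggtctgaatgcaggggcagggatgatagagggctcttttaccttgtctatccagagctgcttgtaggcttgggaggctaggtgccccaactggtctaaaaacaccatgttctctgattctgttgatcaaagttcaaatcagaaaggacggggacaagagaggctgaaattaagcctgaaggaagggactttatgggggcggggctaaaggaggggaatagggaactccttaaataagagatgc
The match in Cpa3 begins 46 bases before the start. Ms4a2 held 3 matches, beginning 224, 37 and 11 bases before the start, and Fcer1a held its GATA form at 92 and its E-box form at 208 bases. The windows of Hdc, Cma1, Mcpt4, Kit and Mrgprb2 held neither motif, which says only that these letters are absent from them. Other forms of the GATA and MITF sites were not searched for, so the windows without capitals may hold such forms.

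Dividing each gene by Cpa3 within a library removes differences that scale all of them alike. Cpa3 itself was 1.93-fold lower with clodrosome, so a gene that did not change has a higher ratio there through the divisor alone. Kit, with a log2 fold change of 0.02, is such a gene. Between the groups 5 of these ratios overlapped, and those of Tpsb2, Tpsab1, Kit and Hdc were higher in every clodrosome library. The share of all tested genes with a higher ratio was not computed. Mcpt4 stood at 0.767, 0.780 and 0.704 of the Cpa3 CPM in clodrosome libraries A, B and C, against 0.723, 0.774 and 0.816 in encapsome libraries A, B and C. Fcer1a stood at 0.0585, 0.0629 and 0.0527 with clodrosome and 0.0501, 0.0639 and 0.0654 with encapsome. Both ratios overlapped between the groups, as did those of Cma1, Ms4a2 and Mrgprb2. Tpsb2 was higher relative to Cpa3 in every clodrosome library, at 0.354, 0.362 and 0.357, against 0.271, 0.279 and 0.336 with encapsome. Tpsab1, from few counts, stood at 0.00883, 0.00867 and 0.0103 with clodrosome and 0.00587, 0.00505 and 0.00670 with encapsome. Kit stood at 0.185, 0.230 and 0.128 of Cpa3 with clodrosome and at 0.0871, 0.0912 and 0.0904 with encapsome. The widest separation was that of Hdc, at 1.78, 2.44 and 1.32 times Cpa3 with clodrosome and 0.371, 0.528 and 0.518 times with encapsome. These ratios describe unequal change between genes and were not tested.

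**Figure D3:**
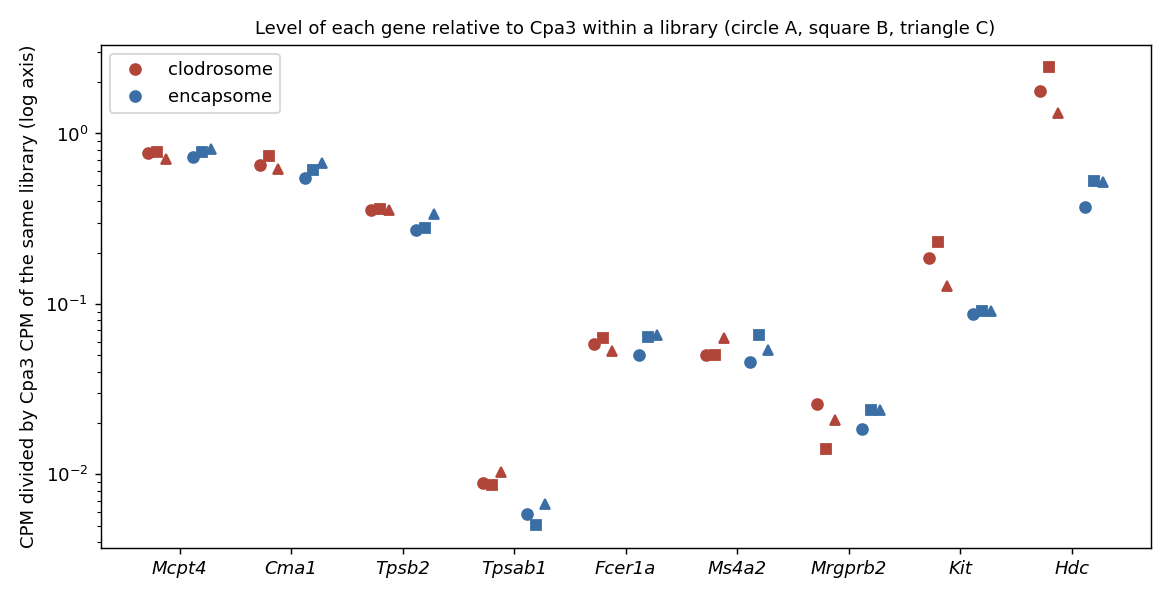
CPM of 9 mast cell genes divided by the Cpa3 CPM of the same library (log axis), with clodrosome libraries left and encapsome libraries right for each gene. Mcpt4, Cma1, Fcer1a, Ms4a2 and Mrgprb2 overlap and Tpsb2, Tpsab1 and Kit are higher with clodrosome, while Hdc lies between 1.32 and 2.44 in clodrosome libraries and between 0.371 and 0.528 in encapsome libraries.

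Levels of different genes were compared as RPKM, the CPM per kilobase of exon. In encapsome skin Mcpt4 (93.4 to 113 RPKM) and Cpa3 (94.3 to 106 RPKM) overlapped at the top, followed by Cma1 (72.2 to 90.7 RPKM) and Tpsb2 (24.4 to 31.2 RPKM). Hdc (8.30 to 13.3 RPKM) and Fcer1a (7.18 to 10.3 RPKM) overlapped in the middle of that order. Ms4a2, Mrgprb2 and Kit lay between 1.27 and 3.77 RPKM, and Tpsab1 was lowest at 0.389 to 0.473 RPKM. In clodrosome skin the ranges of Mcpt4 (42.7 to 60.3 RPKM), Cpa3 (40.0 to 57.5 RPKM) and Cma1 (40.9 to 52.6 RPKM) all overlapped. Hdc, at 17.7 to 24.3 RPKM, there overlapped Tpsb2 at 13.8 to 19.3 RPKM and lay wholly above Fcer1a at 3.82 to 5.11 RPKM.

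Other genes of the mast cell lineage moved partly with the members. Of 17 tested genes 8 fell and 0 rose (median log2 fold change -0.54), and the 8 became 5 without clodrosome library A or without encapsome library C. For this and the following lists, the shares over all tested genes were 13.0% lower and 9.41% higher. With no low-count filter, or with the rRNA share as a covariate, 1 gene of the list rose. Il1rl1, the IL-33 receptor ST2 found on mast cells, regulatory T cells and innate lymphoid cells, averaged 13.8 ± 1.94 CPM in clodrosome skin and 57.2 ± 12.4 CPM in encapsome skin (SD, n = 3 each), or -2.05 as log2 fold change (edgeR adjusted p = 9.85e-05). Cd63, a granule membrane protein of many cell types, changed by -0.78, and Ndst2, an enzyme of heparin synthesis, by -0.51. Mrgprb1, a close relative of Mrgprb2, fell by 0.92 in log2 ratio (edgeR adjusted p = 0.00495). Mcpt1 and Mcpt2, the proteases of mucosal mast cells, did not reach the count filter, at no more than 0.221 CPM in any library. By edgeR at an unadjusted p under 0.05, and by DESeq2 after adjustment, 0 genes of this list were higher. Slc18a2, which loads histamine into granules, and the transcription factors Gata2, Gata1 and Mitf did not pass.

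Signalling genes below the Fc epsilon receptor fell in 10 of 17 cases, with 0 higher and a median of -0.56. At an unadjusted p under 0.05 edgeR gave 1 higher gene and DESeq2, adjusted, 0, while edgeR with upper quartile factors or without clodrosome library B called 1. Lat2, a membrane adaptor, had the smallest p, at 6.67 ± 0.537 CPM in clodrosome skin and 29.0 ± 5.08 CPM in encapsome skin (SD, n = 3 each), with a log2 ratio of -2.12 (edgeR adjusted p = 6.96e-05). The gamma chain Fcer1g changed by -1.20, the adaptor Grb2 by -0.97 and the kinase Btk by -0.98. Macrophages and other myeloid cells express these genes too, and the summed macrophage markers stood at 674 to 1640 CPM in clodrosome skin and 3720 to 4460 CPM in encapsome skin, with none at 0. What share of the falls came from macrophages was not tested.

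Among growth factors and their receptors 6 of 9 tested genes fell and 0 rose, with a median of -0.35. Il1rl1 is in this list and in that of the mast cell lineage. Il3ra, the IL-3 receptor alpha chain also found on basophils, changed by -1.18, Il4ra by -0.70 and Csf2rb2, a beta chain of the IL-3 receptor in mice, by -0.35. Kitl, the Kit ligand, averaged 58.0 CPM in clodrosome skin and 67.6 CPM in encapsome skin and did not pass (log2 fold change -0.22; edgeR adjusted p = 0.0885). By edgeR at an unadjusted p under 0.05, by DESeq2, with no low-count filter, without clodrosome library C or with the rRNA share as a covariate, 1 gene of the list was higher. Genes that handle or sense histamine fell in 2 of 7 cases and rose in 0, with a median of -0.31, and 0 were higher by edgeR at an unadjusted p under 0.05 or by DESeq2. Hnmt, the methyltransferase that inactivates histamine, averaged 5.97 ± 1.17 CPM in clodrosome skin and 11.8 ± 1.73 CPM in encapsome skin (SD, n = 3 each), with a log2 ratio of -0.99 (edgeR adjusted p = 0.00330). The histamine receptor Hrh4 changed by -1.42, from few counts, and the 2 calls became 1 when any library except clodrosome library B was left out. Of 9 exocytosis genes 2 fell, Snap23 by 0.47 and Stx4a by 0.31 on the log2 scale, with a median of -0.15. Leaving out clodrosome library A, or either of encapsome libraries A and C, lost 1 of the 2 calls. With 13.0% of all tested genes lower, 2 of 7 histamine genes and 2 of 9 exocytosis genes are too few to set these lists apart. What share of the falls in the growth factor, histamine and exocytosis lists came from mast cells or from macrophages was not tested.

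**Figure D4:**
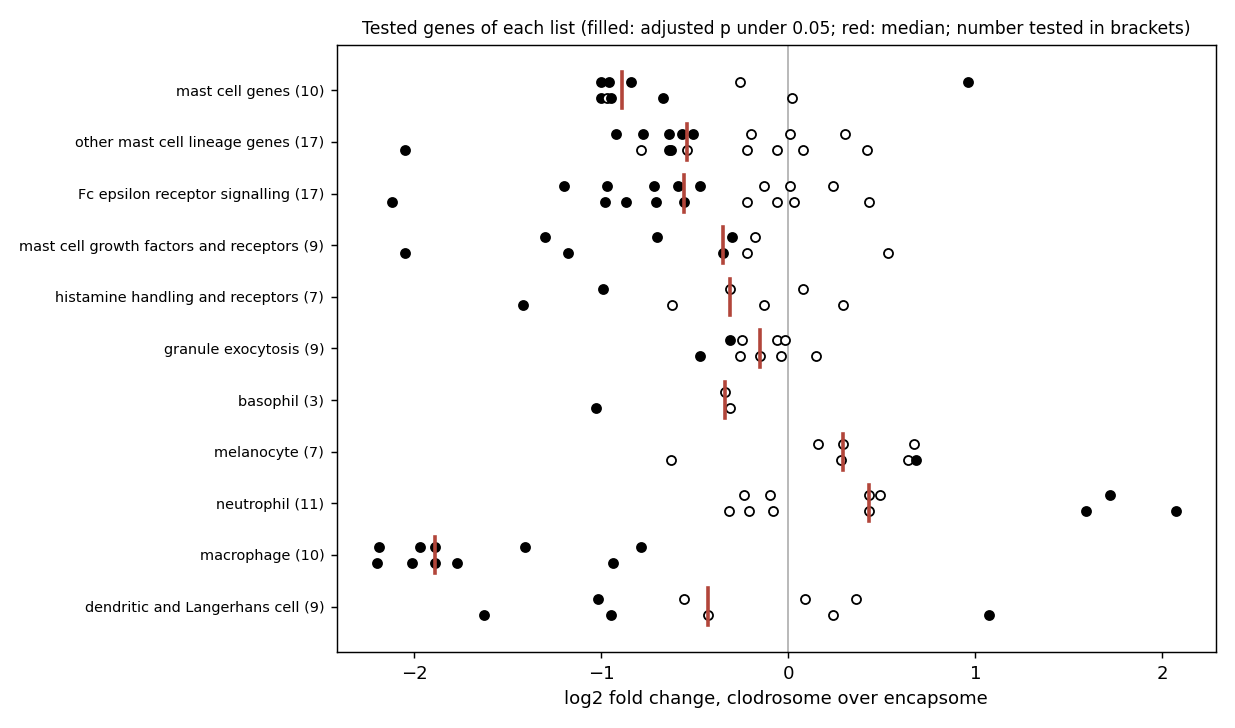
Log2 fold change, clodrosome over encapsome, of each tested gene by list, with a red bar at the list's median and filled points at edgeR adjusted p under 0.05. Medians run from -1.89 for macrophage markers to 0.43 for neutrophil markers, with the mast cell genes at -0.89.

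Cells that share members with mast cells were read from their own markers. For basophils, Mcpt8 averaged 1.93 ± 0.928 CPM in clodrosome skin and 2.36 ± 0.838 CPM in encapsome skin (SD, n = 3 each; edgeR adjusted p = 0.584), and Cd200r3, also known on mast cells, changed by -1.03 (edgeR adjusted p = 0.00758). The 4 basophil markers summed to 4.80 to 7.55 CPM in clodrosome skin and 7.77 to 12.1 CPM in encapsome skin, with none at 0 in all libraries. Of that sum Cd200r3 held 2.33 to 3.01 CPM in clodrosome skin and 4.42 to 6.79 CPM in encapsome skin. Mcpt8 and Il4 overlapped between the groups, and Prss34 was lower with clodrosome but too low to be tested. The sum is therefore not read as a fall of basophils. Neutrophil markers rose in 3 of 11 cases and fell in 0 by edgeR, with a median of 0.43; 5 rose and 0 fell at an unadjusted p under 0.05 and by DESeq2. With the rRNA share as a covariate 5 rose, and with no low-count filter 5 rose and 1 fell, as 1 did without encapsome library A. Retnlg, Lcn2 and Ly6g rose by 2.07, 1.72 and 1.59, whereas the granulocyte receptors Csf3r and Cxcr2 had log2 fold changes of -0.21 and -0.24 and did not pass. The summed neutrophil markers were 2450 to 3370 CPM in clodrosome skin and 1350 to 2060 CPM in encapsome skin. That sum rested on Lcn2, at 1070 CPM in clodrosome skin and 323 CPM in encapsome skin, and on S100a8 and S100a9, which did not pass (log2 fold change 0.43 each). Without these 3 genes it was 299 to 434 CPM in clodrosome skin and 293 to 472 CPM in encapsome skin, and 6 of the 11 markers had a log2 fold change above 0 and 5 below. Among neutrophil markers, 9 of 11 were highest in clodrosome library B of the clodrosome libraries. Of the encapsome libraries, library A was lowest for 7 of 11. How often these libraries were highest or lowest over all tested genes was not counted, so the order is not shown to be particular to neutrophil markers. Hdc was close in clodrosome libraries A and B, at 155 and 148 CPM (SD 22.5 over the 3 clodrosome libraries), and lowest in encapsome library A. The part of neutrophils in the rise of Hdc was not tested. Dendritic and Langerhans cell markers fell in 3 of 9 cases and rose in 1, and 4 of the 9 had a log2 fold change above 0. Itgax, H2-Aa and Cd209a had log2 fold changes of -0.95, -1.02 and -1.63, and Ccr7 of 1.07. The summed level of the 9 markers was mostly H2-Aa, an MHC class II chain that macrophages also carry. Without H2-Aa it stood at 81.1 to 89.1 CPM in clodrosome skin and 113 to 141 CPM in encapsome skin.

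The chymase and tryptase genes sit in clusters with other serine proteases, of which 17 of 18 listed neighbours were in the table and 5 were tested. Gzmc, a granzyme near the chymases on chromosome 14, fell by 1.10 in log2 ratio (edgeR adjusted p = 0.0184), a call lost without clodrosome library A and without encapsome library C, and the other tested neighbours, Gzmb, Ctsg, Mcpt8 and Tpsg1, did not pass. Tpsg1, a transmembrane tryptase, had a log2 fold change of -0.79 with a standard error of 0.425. Mcpt9 and Cma2 did not exceed 0.266 CPM in any library.

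Single libraries gave most of the 10 genes a common order. Clodrosome library B was the lowest clodrosome library for 8 of the 10 genes, the exceptions being Kit and Hdc, and it was also the lowest for 10 of 10 macrophage markers. Encapsome library A was the lowest encapsome library for 9 of the 10 genes, Tpsab1 being the exception, but for 0 of 10 macrophage markers. How often these libraries were lowest over all tested genes was not counted, so the order is not shown to be particular to these genes. Without clodrosome library B the log2 fold changes of Cpa3, Mcpt4 and Hdc were -0.80, -0.87 and 0.92 (edgeR adjusted p = 3.56e-04, 7.41e-04 and 0.0115). With each library removed once, Cpa3, Cma1, Mcpt4, Tpsb2 and Fcer1a stayed lower and Hdc higher at adjusted p-values of at most 0.0382.

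**Figure D5:**
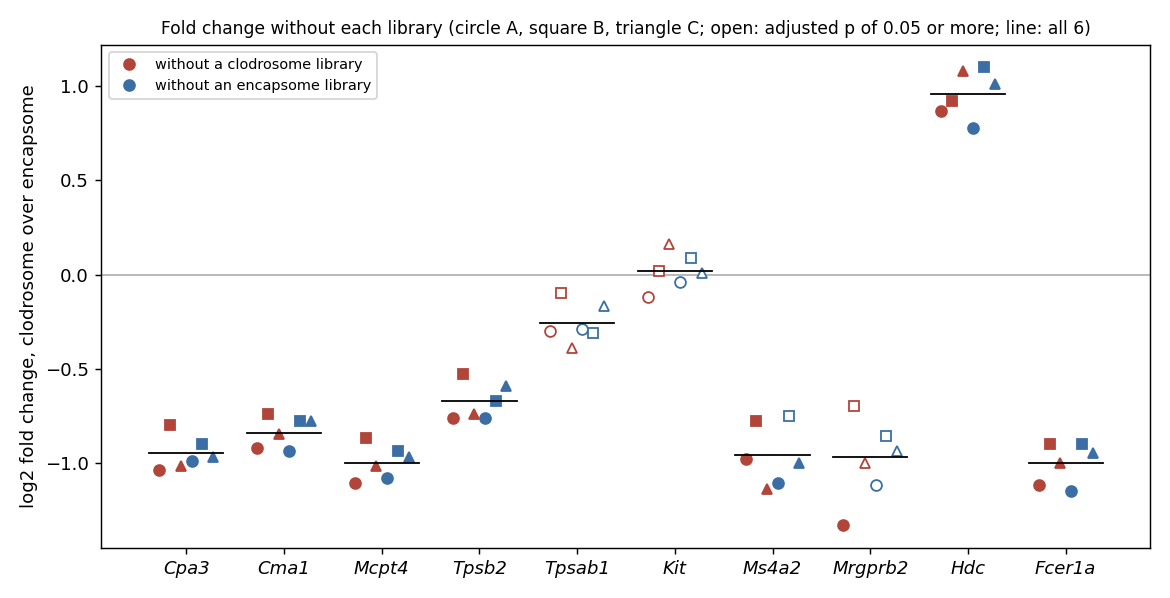
Log2 fold change of each mast cell gene, clodrosome over encapsome, with 1 of the 6 libraries left out at a time (points, open where the edgeR adjusted p was 0.05 or more) and with all libraries (line). Points of Kit fall on both sides of 0, between -0.12 and 0.16, and those of Hdc lie between 0.78 and 1.10.

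Among the 10 genes whose log2 CPM over the 6 libraries was most like the mean standardised profile of the 10 members were Fndc4, Nim1k, Twist2, Mtmr6, Hspa12a, Crlf3, A4galt, Steap2 and Taf6l, with Pearson correlations from 0.986 to 0.995. Of these, Crlf3 was also among the 10 most alike when values were centred within each group. The mean profile of the members joins genes that fell with Hdc, which rose, and Kit. It stood at -0.08, -1.07 and -0.47 in clodrosome libraries A, B and C. In encapsome libraries A, B and C it stood at 0.12, 0.80 and 0.70. By edgeR Fndc4, Nim1k, Mtmr6, Crlf3 and Steap2 did not pass, while Twist2, Hspa12a, A4galt and Taf6l were lower with clodrosome. With 6 libraries that split by group, and so few genes taken from so many, such correlations describe these libraries only.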

How the data were processed

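Per the labels' protocols, RNA of dorsal skin was isolated with TRIzol and sequenced from stranded mRNA libraries as paired ends. The submitters' processing notes name Trimmomatic 0.36, HISAT2 2.2.1, StringTie 2.2.1, featureCounts 1.6.2, DESeq2 1.34.0 and mm10. The deposited table holds raw counts per gene made, per the file headers, by featureCounts 1.6.2 with an Ensembl annotation of GRCm38, and no option for paired ends or strand was set. Between 63.6% and 69.7% of counts from 1 to 20 were even, so both ends of a fragment were often counted and reads of antisense genes are not separated. No exon of the 10 genes overlapped another gene (0% of exonic bases). The deposited lengths in the same table, another kind of value that the authors took from exons, gave RPKM. Columns were matched to groups by name, with 0 further sample columns. Symbols matched 99.4% of identifiers. Libraries of a group differed by a chi-square per gene of 9.93 to 53.0, more than sampling noise.

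Counts were tested with edgeR 4.0.16 in R 4.3.3 (glmQLFit, glmQLFTest, group as the only term, TMM factors, filterByExpr with a minimum count of 10 and total of 15). P-values were adjusted by Benjamini-Hochberg over 17988 genes, with a threshold of 0.05. Standard errors are the log2 fold change over the square root of F, and 95% intervals are not adjusted for many genes. Log2 CPM used a prior count of 2. The fit was tested on simulated data. Alternatives were other size factors, DESeq2 1.42.0, no low-count filter, each library left out, and, chosen after seeing the data, the rRNA share as a covariate. All members are named, with up to 4 genes of smallest p per list (fewer in some lists) and the check of Adgre1. Further genes were named after their values were seen. The members and lists were chosen with earlier results of these data known. One gene among those most like the members is not reported here.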

Additional observations from a re-analysis of the deposited data

How the results depend on the processing

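Of 110 values of the 10 genes under alternatives, 104 kept their direction and their side of the threshold, 1 lost its call, 3 gained it and 2 changed sign. Mrgprb2 passed at -0.99 with DESeq2 and at -0.95 with no low-count filter. Leaving out each library in turn gave log2 fold changes from -1.04 to -0.80 for Cpa3, -0.94 to -0.74 for Cma1, -1.11 to -0.87 for Mcpt4, -0.76 to -0.53 for Tpsb2, -0.39 to -0.10 for Tpsab1, -0.12 to 0.16 for Kit, -1.14 to -0.75 for Ms4a2, -1.33 to -0.70 for Mrgprb2, 0.78 to 1.10 for Hdc and -1.15 to -0.90 for Fcer1a. Kit turned to -0.12 and -0.04 without clodrosome library A and encapsome library A. Calls among the 10 genes ranged from 5 to 7 lower and stayed at 1 higher. Over the whole table the 4035 called genes (1692 higher, 2343 lower) became 2477 to 4396 when each library was left out, with 821 to 1964 of them higher and 1656 to 2432 lower. They became 4478 with DESeq2 (1986 higher, 2492 lower), 4223 with upper quartile factors (2091 higher, 2132 lower) and 4729 with no low-count filter (2199 higher, 2530 lower). The lowest total came without encapsome library B, and 2642 were called without clodrosome library C. The cause was not tested. No paired analysis was possible because the count columns carry no replicate number of the labels. Tpsab1 and Mrgprb2 had as few as 16 and 26 counts in a library, and the part of depth in their errors was not tested.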
